A study of Mus musculus with 10 samples.

Results

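DNA replication and the supply of its nucleotides were followed through 46 genes in mouse embryonic fibroblasts (MEFs), cells cultured from the connective tissue of mouse embryos. The genes were picked by name for their role: subunits of the replicative helicase, its loaders and activators, the DNA polymerases, the sliding clamp and its loaders, single-strand binding and fragment joining proteins, enzymes of deoxynucleotide supply, factors that copy chromatin, and regulators of entry into S phase. All 46 were among the 22552 genes listed in the deposited RNA-seq tables, and all 46 were among the 10901 genes with a mean of at least 1 FPKM that were tested. FPKM counts sequenced fragments relative to transcript length and to library depth, so levels can be compared between genes.

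The study asked how Cirbp and Rbm3, a pair of RNA-binding proteins induced by mild cold, act on the transcriptome. Polyadenylated RNA was sequenced from 4 groups of 2 libraries each: mock transfection at 37 °C, mock transfection at 32 °C, and siRNA against Cirbp (siCirbp) or against Rbm3 (siRbm3), both at 37 °C. No group with a control siRNA was among the samples, so the effect of losing a target and a general effect of siRNA cannot be told apart. PAR-CLIP, which maps the crosslinked sites of an RNA-binding protein, was done once for each protein, at 37 °C. The MEFs used for it stably expressed the protein with a FLAG tag and were fed 100 µM 4-thiouridine for 16 h. The labels do not say whether the 2 libraries of a group came from separate cultures, so p-values measure only the spread between these libraries. RNA of whole cultures cannot tell fewer cells in S phase from less RNA per cell.

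In G1, the loader proteins Cdc6 and Cdt1 place the ring-shaped Mcm2 to Mcm7 helicase on DNA. At the start of S phase the ring is activated, polymerases are recruited, and ribonucleotide reductase and the thymidylate enzymes provide the building blocks. Many of these genes are known targets of E2F transcription factors, which are held back by retinoblastoma family proteins until cyclin E and its kinase act.

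Depth was 24.8 to 27.8 M mapped fragments per library, and the member with the least coverage still had about 26 reads in its lowest library. The cold library pair held more Cirbp RNA than the mock pair at 37 °C, with 34.5 and 37.2 FPKM against 15.9 and 17.1. This difference was called (log2 1.07, limma adjusted p = 0.0313). The siCirbp pair held less, with 10.8 and 6.07, but that difference was not called (log2 -0.94, limma adjusted p = 0.116). Rbm3 was listed at 1.85 and 2.21 FPKM in mock 37 °C but at 3.05 and 1.16 in the pair labelled siRbm3, so replicate 1 of that group goes against its label. In the cold Rbm3 stood at 3.64 and 3.2 FPKM, and the difference from mock 37 °C was not called (log2 0.55, limma adjusted p = 0.191). The siCirbp pair held the most Rbm3, with 5.54 and 7.55 FPKM (log2 difference 1.31, limma adjusted p = 0.0588), a difference that was not called. Of the fibroblast markers Vim was the highest in every library, Pdgfra ran from 7.62 to 19.1 FPKM, and Thy1 was listed at 0 in every library. The summed FPKM of the 8 fibroblast markers ran from 4620 to 4820 in mock 37 °C and 2540 to 2690 in the cold. It ran from 2450 to 3090 with siCirbp and 4000 to 6370 in the pair labelled siRbm3. Vim, Col1a1 and Fn1 made up most of this sum. Both cold libraries lay below both mock 37 °C libraries for Vim, Col1a1, Col1a2, Pdgfrb and Fn1. They lay above them for Pdgfra and Col3a1. Pdgfra stood at 19.1 and 18.8 FPKM in the cold against 12.3 and 11.9 (log2 0.61, limma adjusted p = 0.0259). Col3a1 stood at 133 and 121 against 73.1 and 72.1, which was not called (limma adjusted p = 0.245). Of 6 macrophage markers Emr1 was at 0 everywhere, while Cd68 and Cd14 brought the sum to 17.6 to 20.6 FPKM in mock 37 °C, 30.4 to 35.9 in the cold, 14.2 to 15.0 with siCirbp and 13.1 to 25.0 in the pair labelled siRbm3. Of 4 adipocyte markers Fabp4 carried a sum of 10.3 to 10.6 FPKM in mock 37 °C, 26.9 in each cold library, 5.49 to 25.5 with siCirbp and 6.79 to 10.5 in the pair labelled siRbm3. Among 4 muscle markers Myod1 was at 0 everywhere and the sum was at most 3.21 FPKM, the 5 epithelial markers summed to at most 7.68 FPKM, nearly all Krt19, and the 4 endothelial genes to at most 0.383. Sox2, a stem cell and neural progenitor factor, Nes and Mtap2 carried nearly all of the sum of the 5 neural markers. That sum was 64.2 to 67.6 FPKM in mock 37 °C, 24.5 to 25.2 in the cold, 67.2 to 90.2 with siCirbp and 75.7 to 76.9 in the pair labelled siRbm3. The part of these shifts in the results was not tested.

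The proximal promoters of the members held the letters of an E2F site more often than those of all tested genes. Promoter windows reaching from 250 bases before to 50 bases after the start were found by symbol in the RefSeq promoter table (build GRCm38.p6) for 38 members. The letters searched were TTTCCCGC, TTTGGCGC, TTTCGCGC and TTTGCCGC on both strands, and 15 of the 38 genes (39.5%) held at least 1 of them, against 5.1% of the 7724 tested genes with a window and 2.6% of all 27025 genes of the table. CCAAT, the box bound by NF-Y, was found in 57.9% of members and 43.9% of tested genes. TTTGAA, the cell cycle homology region (CHR) of late cell cycle genes, was found in 13.2% of members and 13.6% of tested genes. Of 20 mitosis genes 17 had a window, of which 5.88% held an E2F match, 94.1% CCAAT and 70.6% TTTGAA. Related lists described below also held E2F letters, in 36.8% of 19 other G1/S regulators and 24.1% of 29 other replication factors. For 20 genes of other nucleotide synthesis the share was 5%. A match describes the letters of the window and is not a measured binding site. No window was matched for Mcm4, Gins1, Gins2, Gins4, Prim2, Pole, Rfc2 and Ccne2.

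**Figure D1:**
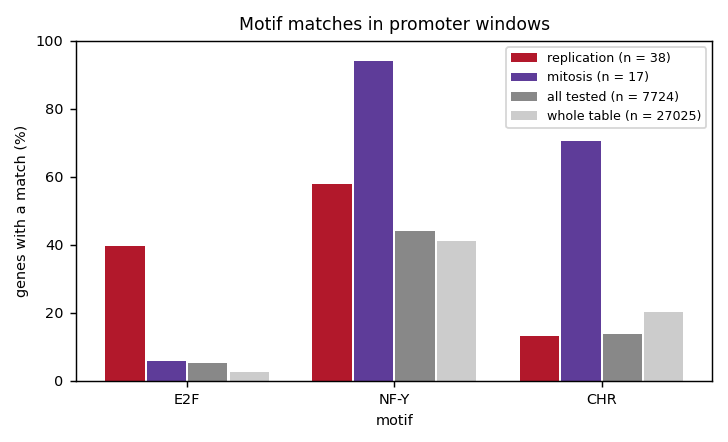
Share of genes (%, y axis) whose promoter window held at least 1 match to the E2F, NF-Y or CHR letters (x axis), for the replication genes, the mitosis genes, all tested genes and the whole promoter table. E2F letters were found in 39.5% of replication genes and 5.88% of mitosis genes, CHR letters in 13.2% and 70.6%.

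In 8 of the 15 members the match and its flanks lay wholly before the start. They are shown 5′ to 3′ on the strand of the gene, because these letters did not enter the choice of the set and were found in 39.5% of its matched genes. Capitals mark the E2F letters, including overlapping matches on both strands.
Mcm5: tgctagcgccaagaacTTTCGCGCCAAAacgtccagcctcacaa
Mcm6: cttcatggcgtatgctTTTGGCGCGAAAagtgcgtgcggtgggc
Mcm7: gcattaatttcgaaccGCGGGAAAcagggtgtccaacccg
Cdc6: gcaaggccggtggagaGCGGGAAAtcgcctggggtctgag
Gins3: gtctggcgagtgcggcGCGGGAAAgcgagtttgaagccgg
Pola1: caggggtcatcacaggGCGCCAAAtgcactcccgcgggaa
Dnmt1: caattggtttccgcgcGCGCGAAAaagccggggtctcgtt
Uhrf1: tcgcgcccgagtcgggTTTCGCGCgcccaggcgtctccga
The Mcm5 stretch lies at chr8:75109340-75109383 on the plus strand, its first match 153 bases before the start, and that of Mcm6 at chr1:128359788-128359831 on the minus strand, 110 bases before the start. In both, 2 matches on opposite strands overlap. Mcm6 held a further match 47 bases before its start. The stretches of Mcm7 (chr5:138172025-138172064, minus strand), Cdc6 (chr11:98907997-98908036, plus strand) and Gins3 (chr8:95633502-95633541, plus strand) held their match 165, 138 and 41 bases before the start. Those of Pola1 (chrX:93632270-93632309, minus strand), Dnmt1 (chr9:20952819-20952858, minus strand) and Uhrf1 (chr17:56304112-56304151, plus strand) held it 138, 219 and 185 bases before the start.

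At 32 °C the set split: 15 of the 46 genes fell, 0 rose and 31 were not called, by limma at an adjusted p under 0.05. Among all tested genes 19.8% fell and 13% rose. The members' median log2 change was -0.42, against -0.02 over all tested genes. The genes that fell were Mcm3, Mcm5, Mcm10, Pola2, Pold1, Pold3, Pole, Pole2, Rfc5, Lig1, Tk1, Chaf1a, Dnmt1, Uhrf1 and E2f1. Both cold libraries lay below both mock 37 °C libraries for 28 members (43.8% of all tested genes) and above them for 9 (41% of all tested genes). At an unadjusted p under 0.05, 16 members were lower and 2 higher, against 25.7% and 19.9% of all tested genes. With all libraries centred on their median, 12 members fell and 2 rose (Dut and Rfc3), and the shares of all tested genes turned to 15.8% lower and 19.4% higher. In a fit of the cold and mock 37 °C libraries alone, 26 members were lower and 6 higher (Ccne1, Chaf1b, Dut, Pcna, Rfc3 and Rpa2), against 36.7% and 32.6% of all tested genes. With any 1 of the mock 37 °C or 32 °C libraries left out, fewer members and fewer of all tested genes were called lower. The members' median log2 change was then -0.47 or -0.27 without mock 37 °C replicate 1 or 2. It was -0.30 or -0.51 without 32 °C replicate 1 or 2.

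With siCirbp the direction was uniform: 31 of 46 genes rose and 0 fell, and the estimate was above 0 for all 46. Among all tested genes 2.77% rose and 0.624% fell. The 31 include Cdc6, which passed the filter on low values only through its siCirbp libraries. The members' median log2 difference was 1.35, against 0.08 over all tested genes, and both siCirbp libraries lay above both mock 37 °C libraries for 45 of the 46 (38.5% of all tested genes). The exception was Rfc1. Adjusted p-values of the 31 genes ran only from 0.0211 to 0.0486, so many calls turn with the setting. The calls were lost when either mock 37 °C library, either 32 °C library or siCirbp replicate 2 was left out. Nearly all calls among all tested genes were lost there too. The members' median log2 difference in those fits was 1.17 to 1.36. The count was 0 under the replicate block and in a fit of the siCirbp and mock 37 °C libraries alone. In each, 0.0183% of all tested genes were called higher. It was 4 with no filter on low values (0.212% of the 17006 genes then tested). It was 15 when the trend of fold change with transcript length was removed (0.596% of all tested genes). Under the block, in the 2-group fit, without the filter and without the length trend, 42 or 43 members had an unadjusted p under 0.05. Of all tested genes 2425 to 2940 of 10901 did, and 3241 of 17006 with no filter. In the fit of all libraries 42 members were higher and 0 lower at that level, against 17.6% and 6.61% of all tested genes.

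In the pair labelled siRbm3, 0 of the 46 genes were called by limma, as were 0 of all tested genes. At an unadjusted p under 0.05, 17 members were higher and 0 lower, against 9.21% and 4.1% of all tested genes. The median log2 difference of the members was 0.46, against 0.12 over all tested genes, and adjusted p-values ran from 0.35 to 0.834. Both libraries lay above both mock 37 °C libraries for 34 members (37.2% of all tested genes). Set directly against these libraries, the siCirbp libraries gave 0 calls among the members and a median log2 difference of 0.92. At an unadjusted p under 0.05, 42 members were higher and 0 lower, against 9.19% and 5.98% of all tested genes. All tested genes had 0.0183% called higher in that comparison. With siRbm3 replicate 1 left out, the library that goes against its label, 28 members were called higher with siCirbp, as were 12.3% of all tested genes, and with replicate 2 left out instead 0 members and 0.0367% of all tested genes were. The cold, siCirbp and siRbm3 comparisons share the 2 mock 37 °C libraries, so their values are given side by side and not correlated.

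**Figure D2:**
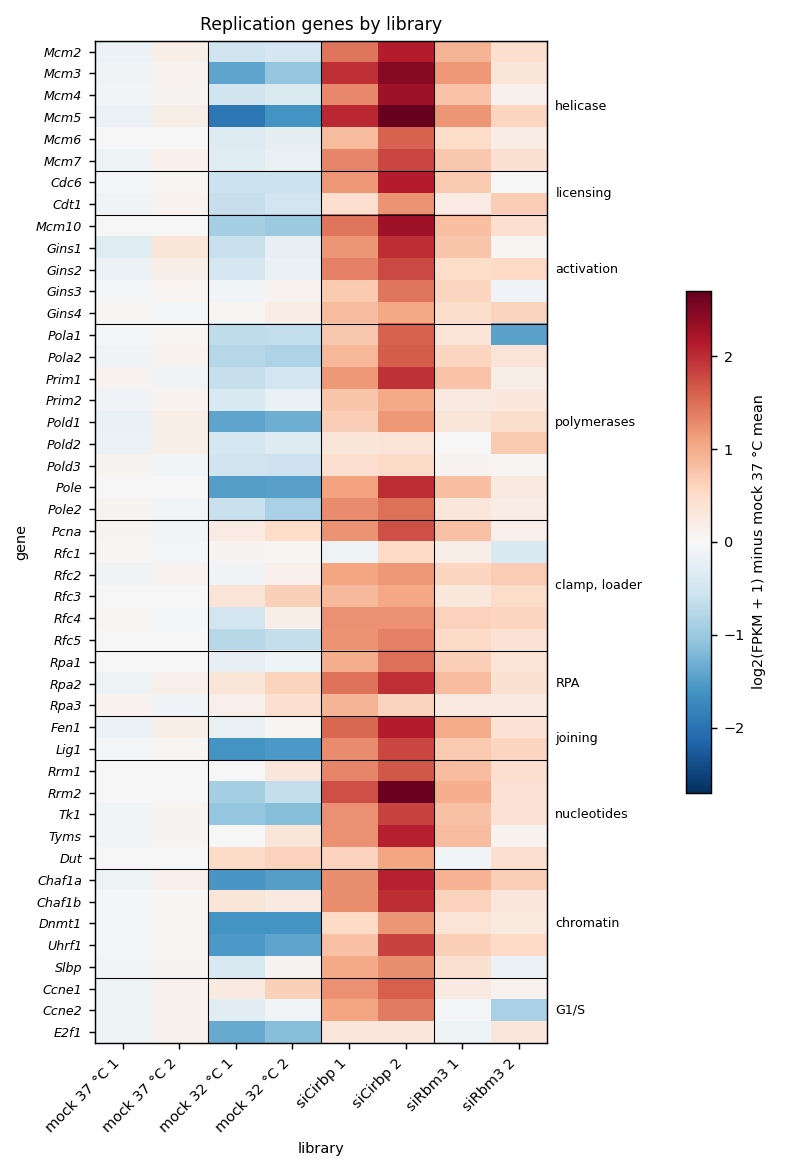
Each of the 46 replication genes (y axis, grouped by role) in each of the 8 libraries (x axis), as log2(FPKM + 1) minus the mean of the 2 mock 37 °C libraries. The siCirbp columns are above 0 throughout except Rfc1 in replicate 1, while the cold columns mix genes far below 0 with genes at or above it.

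The 6 subunits of the replicative helicase all rose with siCirbp, and Mcm3 and Mcm5 fell in the cold. Of all tested genes 2.77% rose with siCirbp and 19.8% fell in the cold. Mcm5 measured 8.48 and 10.8 FPKM in the mock 37 °C libraries, 1.75 and 2.44 at 32 °C, 42.4 and 67.0 with siCirbp, and 23.3 and 14.7 in the pair labelled siRbm3. No 2 groups overlapped. On the log2(FPKM + 1) scale Mcm5 changed by -1.78 ± 0.29 (SE, limma adjusted p = 0.00609) in the cold and by 2.36 ± 0.29 with siCirbp (adjusted p = 0.0211), the largest rise of the set. The SE of a gene is the same in every comparison because its spread was pooled over all libraries. Mcm3 followed the same order, with 11.3 and 13.0 FPKM in mock 37 °C, 3.89 and 5.37 at 32 °C, 50.7 and 71.5 with siCirbp, and 28.7 and 15.5 in the pair labelled siRbm3. Its changes were -1.23 ± 0.30 (adjusted p = 0.0208) and 2.22 ± 0.30 (adjusted p = 0.0254).

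The other 4 subunits were below mock 37 °C in the cold in every library, but not called. Mcm2 measured 9.95 and 12.8 FPKM in mock 37 °C, 7.42 and 8.01 at 32 °C, 32.6 and 52.7 with siCirbp, and 22.1 and 15.9 in the pair labelled siRbm3. Mcm7 measured 7.21 and 9.0, 6.18 and 6.91, 21.5 and 30.8, and 14.0 and 11.1 FPKM in the same order of groups. The log2 difference in the cold was -0.50 for Mcm2 (limma adjusted p = 0.18), -0.46 for Mcm4 (0.326), -0.30 for Mcm6 (0.371) and -0.26 for Mcm7 (0.375), and in the fit of the cold and mock 37 °C libraries alone Mcm2, Mcm4 and Mcm6 were also called lower. With siCirbp they rose by 1.79 (Mcm2), 1.79 (Mcm4), 1.23 (Mcm6) and 1.56 (Mcm7) on the log2 scale.

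Because the 6 subunits form 1 ring with a single copy of each, their share of the summed Mcm2 to Mcm7 FPKM was also read. The sum was 77.2 and 87.8 FPKM in mock 37 °C, 50.1 and 56.2 at 32 °C, 232 and 375 with siCirbp, and 151 and 104 in the pair labelled siRbm3. Mcm5 made up 11.0% and 12.2% of it in mock 37 °C, 3.49% and 4.33% at 32 °C, 18.2% and 17.8% with siCirbp, and 15.4% and 14.1% in the pair labelled siRbm3. Mcm6 went the other way, from 37.4% and 33.7% to 45.5% and 43.5% at 32 °C, 23.3% and 24.1% with siCirbp, and 27.5% and 32.4% in the pair labelled siRbm3. The highest subunit exceeded the lowest 4.00-fold and 3.29-fold in mock 37 °C, 13.0-fold and 10.0-fold in the cold, 2.51-fold and 2.94-fold with siCirbp, and 2.97-fold and 3.04-fold in the pair labelled siRbm3. The subunit RNAs were more unequal in the cold pair than in the other 6 libraries, a description of these libraries without a test.

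**Figure D3:**
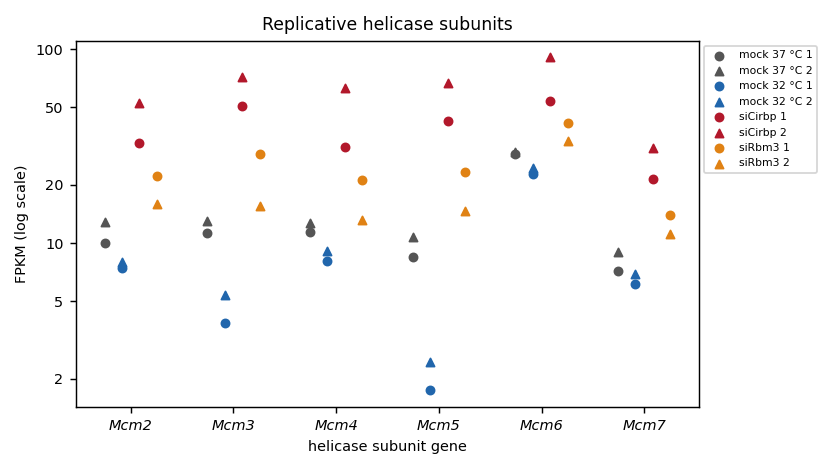
FPKM (y axis, log scale) of the 6 helicase subunit genes (x axis) in each library, with circles for replicate 1 and triangles for replicate 2. Mcm5 spans 1.75 to 67.0 FPKM and Mcm6 only 22.8 to 90.6.

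The helicase loaders were less uniform. Cdc6, which recruits the helicase to origins, measured 0.78 and 0.914 FPKM in mock 37 °C, 0.231 and 0.227 at 32 °C, 3.16 and 7.06 with siCirbp, and 2.00 and 0.828 in the pair labelled siRbm3. It rose by 1.65 ± 0.34 with siCirbp (limma adjusted p = 0.0486). Cdc6 reached the mean of 1 FPKM needed for testing only through its siCirbp libraries, where it was high. With no filter on low values it was not called (limma adjusted p = 0.088). In the cold both libraries lay below both mock libraries, with a log2 difference of -0.59 ± 0.34 (adjusted p = 0.218), a scale that understates changes at such low FPKM. Cdt1, its partner in loading, measured 20.7 and 23.9, 14.0 and 15.2, 31.0 and 53.2, and 26.0 and 36.0 FPKM in the same order and was called in neither comparison (adjusted p = 0.135 and 0.114).

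Of the genes that activate the loaded helicase, Mcm10 showed both movements. Mcm10 measured 2.80 and 2.89 FPKM in mock 37 °C, 1.07 and 0.916 at 32 °C, 9.51 and 17.9 with siCirbp, and 5.78 and 4.28 in the pair labelled siRbm3. It fell by 0.95 on the log2 scale in the cold (SE 0.28, limma adjusted p = 0.0362) and rose by 1.87 with siCirbp (SE 0.28, adjusted p = 0.0266). The GINS complex, which joins the helicase in the moving fork, was called only in part. Gins2 rose by 1.57 (adjusted p = 0.0211) from 12.5 and 15.6 FPKM to 37.2 and 50.8 with siCirbp. Gins4 rose by 0.95 (adjusted p = 0.0266) from 18.6 and 17.9 to 33.7 and 38.8. Gins1 measured 2.99 and 5.24 FPKM in mock 37 °C, 2.27 and 3.26 at 32 °C, 10.5 and 18.8 with siCirbp, and 7.36 and 4.08 in the pair labelled siRbm3, a difference of 1.60 with siCirbp that was not called (adjusted p = 0.0598). Gins3 measured 3.66 and 4.02, 3.6 and 4.17, 6.92 and 12.1, and 6.24 and 3.52 FPKM in that order, with an adjusted p of 0.0855 for siCirbp. All 4 GINS genes were between -0.42 and 0.11 in the cold and none was called.

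Of the 9 polymerase genes 5 fell in the cold (19.8% of all tested genes fell), and all 9 estimates were below 0. Pole, the catalytic subunit of the leading strand polymerase epsilon, measured 3.61 and 3.55 FPKM in mock 37 °C, 0.633 and 0.669 at 32 °C, 8.70 and 17.1 with siCirbp, and 7.08 and 4.42 in the pair labelled siRbm3. It fell by 1.47 in the cold (SE 0.31, limma adjusted p = 0.0126) and rose by 1.53 with siCirbp (SE 0.31, adjusted p = 0.0467). Its partner Pole2 went from 2.20 and 1.89 FPKM to 1.01 and 0.658 in the cold and to 6.38 and 7.56 with siCirbp, changes of -0.74 (adjusted p = 0.0176) and 1.39 (adjusted p = 0.0211).

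Of the 3 members from polymerase delta, the lagging strand enzyme, 2 fell in the cold. The catalytic subunit Pold1 measured 4.67 and 6.18 FPKM in mock 37 °C, 1.39 and 1.57 at 32 °C, 9.14 and 13.3 with siCirbp, and 7.0 and 7.86 in the pair labelled siRbm3. It fell by 1.36 in the cold (SE 0.21, limma adjusted p = 0.00537), and its difference of 0.92 with siCirbp was not called (adjusted p = 0.0611). Pold3 fell by 0.55 in the cold (adjusted p = 0.0232), from 8.58 and 7.61 FPKM to 5.25 and 5.14, and stood at 11.4 and 12.0 with siCirbp (adjusted p = 0.0944). Pold2 measured 39.3 and 48.9 FPKM in mock 37 °C, 31.2 and 34.1 at 32 °C, 54.9 and 56.7 with siCirbp, and 43.2 and 72.6 in the pair labelled siRbm3, and was called in no comparison. The polymerase alpha and primase genes, which lay down the primers, all lay above mock 37 °C with siCirbp. Pola2 fell by 0.81 in the cold (adjusted p = 0.0425) and rose by 1.26 with siCirbp (adjusted p = 0.0444). Prim1 and Prim2 rose by 1.57 and 0.89 with siCirbp (adjusted p = 0.0415 for each). Pola1, the catalytic subunit, measured 6.49 and 6.75 FPKM in mock 37 °C, 3.77 and 3.83 at 32 °C, 11.6 and 21.9 with siCirbp, and 8.72 and 1.80 in the pair labelled siRbm3. The last pair lies on both sides of mock 37 °C, Pola1 was not called in the cold (adjusted p = 0.364) or with siCirbp (adjusted p = 0.233), and it was called lower with siRbm3 when replicate 1 of that group was left out (adjusted p = 0.049).

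Of the clamp and its loader only Rfc5 was called in the cold, whereas 5 of the 6 genes rose with siCirbp (2.77% of all tested genes). Rfc5 measured 5.48 and 5.53 FPKM in mock 37 °C, 2.88 and 3.19 at 32 °C, 14.1 and 15.6 with siCirbp, and 8.33 and 7.56 in the pair labelled siRbm3. It fell by 0.69 (limma adjusted p = 0.0127) and rose by 1.28 (adjusted p = 0.0211). Rfc3, a subunit of the same loader, measured 30.1 and 29.6 FPKM in mock 37 °C and 38.1 and 47.1 at 32 °C, and with siCirbp 55.7 and 62.3. Its cold difference of 0.49 missed the threshold (adjusted p = 0.0516) and passed it when all libraries were centred on their median, when they were quantile normalised and under the replicate block. Pcna, the clamp itself, measured 4.73 and 4.14 FPKM in mock 37 °C, 5.35 and 6.65 at 32 °C, 11.5 and 17.1 with siCirbp, and 8.43 and 5.0 in the pair labelled siRbm3, and rose by 1.47 with siCirbp (adjusted p = 0.0384). Rfc2 and Rfc4 rose by 1.12 and 1.24 with siCirbp. Rfc1, the large subunit, measured 28.4 and 26.5, 29.0 and 28.6, 24.8 and 40.0, and 31.0 and 20.3 FPKM in the 4 groups in the same order, the only member whose siCirbp libraries fell on both sides of the mock 37 °C pair.

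RPA coats unwound single strands. Rpa2 measured 4.99 and 6.32 FPKM in mock 37 °C, 7.35 and 9.01 at 32 °C, 17.3 and 25.1 with siCirbp, and 10.8 and 7.84 in the pair labelled siRbm3, so that every other group lay above mock 37 °C. It rose by 1.72 with siCirbp (SE 0.24, limma adjusted p = 0.0256), and its cold difference was 0.47 (adjusted p = 0.166). Rpa1 rose by 1.24 with siCirbp (adjusted p = 0.027), from 17.4 and 17.7 FPKM to 35.9 and 51.3. Rpa3 measured 21.4 and 18.6, 22.0 and 27.1, 38.3 and 30.9, and 23.7 and 23.7 FPKM in the 4 groups and was not called with siCirbp (adjusted p = 0.0588).

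Of the genes that finish lagging strand fragments, Lig1 fell in the cold and Fen1 was not called. Lig1, the ligase that seals them, measured 10.6 and 11.4 FPKM in mock 37 °C, 2.94 and 3.10 at 32 °C, 28.1 and 40.7 with siCirbp, and 18.4 and 17 in the pair labelled siRbm3. It had the smallest adjusted p of all 46 genes in the cold, a fall of 1.58 (SE 0.19, limma adjusted p = 0.00273), and rose by 1.54 with siCirbp (SE 0.19, adjusted p = 0.0211). Fen1, the nuclease that trims the flap before sealing, measured 9.01 and 11.6 FPKM in mock 37 °C and 8.74 and 10.6 at 32 °C. The cold and mock pairs overlapped and the difference was -0.08 ± 0.27 (adjusted p = 0.847). With siCirbp Fen1 stood at 31.7 and 47.4 FPKM, a rise of 1.83 (adjusted p = 0.0266), and in the pair labelled siRbm3 at 21.5 and 13.7.

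Among the enzymes of nucleotide supply, the thymidine kinase fell in the cold and the large subunit of ribonucleotide reductase was not called. Tk1, which salvages thymidine, measured 7.19 and 8.02 FPKM in mock 37 °C, 3.15 and 2.89 at 32 °C, 19.1 and 29.5 with siCirbp, and 13.8 and 10.2 in the pair labelled siRbm3. It fell by 1.1 (SE 0.23, limma adjusted p = 0.0131) and rose by 1.53 (SE 0.23, adjusted p = 0.0266). Ribonucleotide reductase makes all deoxynucleotides from ribonucleotides, with Rrm1 as the large and Rrm2 as the small, S phase regulated subunit. Rrm1 measured 27.6 and 27.7, 27.6 and 34.4, 69.9 and 90.6, and 50.1 and 37.9 FPKM in the 4 groups, and Rrm2 3.24 and 3.30, 1.30 and 1.72, 13.2 and 26.3, and 7.46 and 4.56. Both rose with siCirbp, Rrm1 by 1.49 (adjusted p = 0.0254) and Rrm2 by 2.20 (adjusted p = 0.0266). In the cold Rrm2 lay below mock 37 °C in both libraries with a difference of -0.77 ± 0.33 (adjusted p = 0.106).

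The Rrm1 level was 8.52 and 8.37 times that of Rrm2 in mock 37 °C, 21.2 and 20 times at 32 °C, 5.30 and 3.45 times with siCirbp, and 6.72 and 8.31 times in the pair labelled siRbm3. The ratio was thus higher in both cold libraries and lower in both siCirbp libraries than in either mock 37 °C library. It was also lower in both libraries labelled siRbm3, in replicate 2 only just (8.31 against 8.37). Tyms, which makes thymidylate, measured 2.69 and 3.07 FPKM in mock 37 °C, 2.90 and 3.84 at 32 °C, 8.09 and 15.5 with siCirbp, and 5.94 and 3.12 in the pair labelled siRbm3, and rose by 1.66 with siCirbp (limma adjusted p = 0.0472). Dut, which removes dUTP, measured 17 and 17.3, 25.0 and 27.0, 26.8 and 37.1, and 16.3 and 23.9 FPKM in the same order. It had the highest cold estimate of the set, 0.57 ± 0.22 (adjusted p = 0.0823), which passed the threshold with median centring or without the libraries labelled siRbm3, and 0.84 with siCirbp (adjusted p = 0.0772).

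The maintenance methylation pair and the large subunit of the chromatin assembly factor were among the strongest falls in the cold. Dnmt1, which copies DNA methylation to the new strand, measured 17.8 and 19.4 FPKM in mock 37 °C, 5.36 and 5.37 at 32 °C, 27.3 and 43.5 with siCirbp, and 24.2 and 22.4 in the pair labelled siRbm3. It fell by 1.62 (SE 0.21, limma adjusted p = 0.00327), and its difference of 0.86 with siCirbp was not called (adjusted p = 0.0698). Uhrf1, which guides Dnmt1 to half-methylated sites, measured 6.10 and 6.60, 1.5 and 1.74, 11.7 and 25.1, and 10.4 and 9.70 FPKM. It fell by 1.49 (SE 0.30, adjusted p = 0.0116), with 1.31 for siCirbp (adjusted p = 0.0611).

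Chaf1a and Chaf1b, subunits of the factor that deposits histones behind the fork, both rose with siCirbp, and Chaf1a also fell in the cold. Chaf1a measured 9.55 and 11.6 FPKM in mock 37 °C, 2.91 and 3.12 at 32 °C, 26.7 and 47.9 with siCirbp, and 21.1 and 16.9 in the pair labelled siRbm3. It fell by 1.53 (limma adjusted p = 0.00749) and rose by 1.67 (adjusted p = 0.0292). Chaf1b measured 4.25 and 4.51 FPKM in mock 37 °C and 5.74 and 5.34 at 32 °C, a difference of 0.28 (adjusted p = 0.417), and 11.8 and 20.6 with siCirbp, a rise of 1.63 (adjusted p = 0.0266). Slbp, which binds the stem-loop of histone mRNAs, stood at 10.5 and 11.9, 8.08 and 11.9, 23.9 and 28.2, and 15.2 and 9.93 FPKM in the 4 groups. Its 1.15 with siCirbp narrowly missed the threshold (adjusted p = 0.0519).

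Of the regulators of S phase entry, E2f1 fell in the cold and Ccne1 rose with siCirbp. E2f1, the transcription factor, measured 21.1 and 25.0 FPKM in mock 37 °C, 8.38 and 9.77 at 32 °C, 28.5 and 28.2 with siCirbp, and 20.9 and 28.7 in the pair labelled siRbm3. It fell by 1.25 in the cold (SE 0.19, limma adjusted p = 0.00469), while its siCirbp difference of 0.29 was among the smallest of the set (adjusted p = 0.377). Ccne1, cyclin E1, measured 3.92 and 4.71, 5.25 and 7.23, 11.4 and 15.2, and 5.26 and 4.62 FPKM, with 0.44 in the cold (adjusted p = 0.142) and a rise of 1.42 with siCirbp (adjusted p = 0.0266). Ccne2, cyclin E2, measured 2.99 and 3.69, 2.56 and 3.14, 8.09 and 10.5, and 3.24 and 1.37 FPKM. Its difference between siCirbp and the libraries labelled siRbm3, 1.69 ± 0.29, was not called (adjusted p = 0.221).

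**Figure D4:**
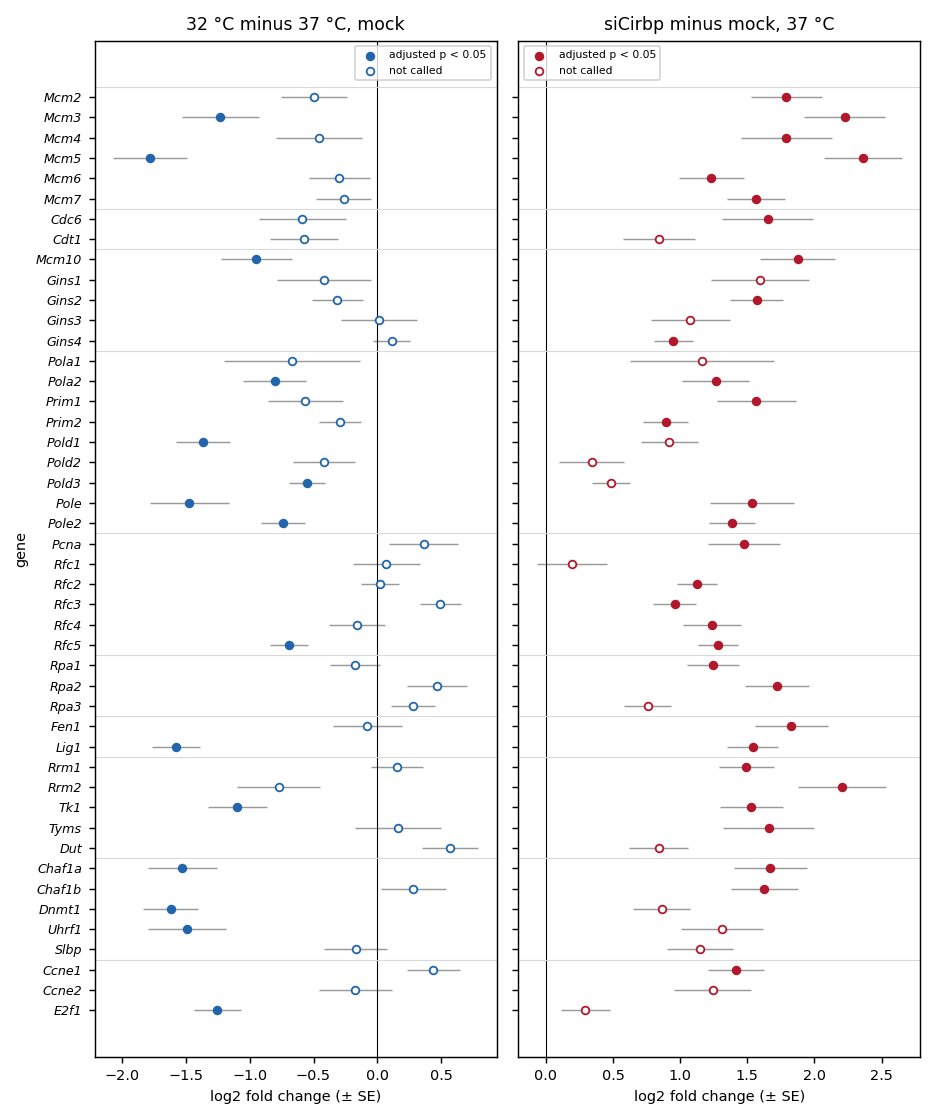
Log2 fold change on the log2(FPKM + 1) scale with its SE (x axes) for each of the 46 genes (y axis), for the cold (left) and siCirbp (right) against mock 37 °C. Filled points passed an adjusted p of 0.05: 15 genes on the left, all below 0, and 31 on the right, all above 0.

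The 10 genes called neither in the cold nor with siCirbp were Cdt1, Gins1, Gins3, Pola1, Pold2, Rfc1, Rpa3, Dut, Slbp and Ccne2. Of the 15 genes with E2F letters 8 fell in the cold, with a median log2 change of -0.67, and of the 23 with a window but no such letters 6 fell, with a median of -0.17. With siCirbp 8 of the 15 rose (median 1.23) and 17 of the 23 without the letters (median 1.48). The shares over all tested genes were 19.8% lower in the cold and 2.77% higher with siCirbp.

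Members also differed by transcript length. The 15 genes that fell in the cold had a median length of 3094 nt, and the 31 others of 2180 nt. The Spearman coefficient between length and the cold log2 change was -0.43 across the 46 genes and -0.34 across all tested genes, given as a description because genes are not independent replicates. For siCirbp it was 0.14 across the members and -0.27 across all tested genes. With the length trend removed 13 of the 15 genes remained called in the cold. The part of length in the results was not otherwise tested.

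The 2 siCirbp libraries were not equally far from mock 37 °C. Against the mock 37 °C mean, the median member stood at 1.17 in siCirbp replicate 1 and 1.63 in replicate 2, and replicate 2 was the higher for 43 of the 46 genes by a median of 0.53 on the log2 scale. Over all tested genes that median was -0.01, and for the 20 mitosis genes 0.07. The libraries labelled siRbm3 stood at 0.60 and 0.37, replicate 2 being the lower for 36 of the 46. Cirbp RNA was 10.8 and 6.07 FPKM in the siCirbp pair and 13.8 and 23.8 in the siRbm3 pair, so in these 2 pairs the library with less Cirbp had the higher median of replication genes. In the other 2 pairs it had the lower: Cirbp was 34.5 and 37.2 FPKM in the cold, with medians of -0.52 and -0.30, and 15.9 and 17.1 FPKM in mock 37 °C, with medians of -0.06 and 0.06. Whether the level of Cirbp moves with these genes was not tested.

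**Figure D5:**
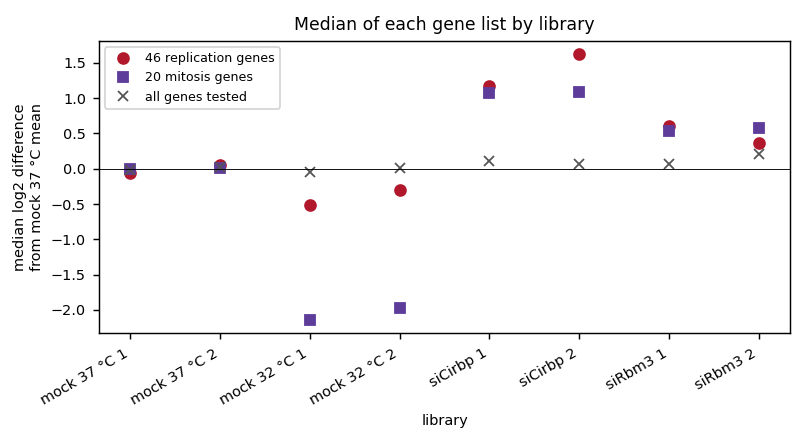
Median log2(FPKM + 1) difference from the mock 37 °C mean (y axis) in each library (x axis) for the 46 replication genes, 20 mitosis genes and all tested genes. The mitosis genes lie at -2.14 and -1.97 in the cold where the replication genes lie at -0.52 and -0.30, and siCirbp replicates 1 and 2 lie at 1.17 and 1.63 for the replication genes and at 1.07 and 1.09 for the mitosis genes.

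Genes of the neighbouring steps were counted on lists not used to choose the members. Of 20 mitosis genes all 20 fell in the cold, with a median of -2.02, and 12 rose with siCirbp. Aurkb, a mitotic kinase, fell by 2.41 (limma adjusted p = 0.000992), Ccna2, the cyclin of S and G2 phase, by 2.46 (adjusted p = 0.001), and the kinase Plk1 and the ubiquitin enzyme Ube2c by 2.42 and 2.79 (adjusted p = 0.00101 for each). Of 34 other replication factors 8 fell and 5 rose in the cold, and 10 rose and 0 fell with siCirbp. The cold counts of these factors lay near the shares of all tested genes, 19.8% lower and 13% higher. With siCirbp 2.77% of all tested genes rose. The histone chaperone Asf1b fell by 1.57 in the cold (adjusted p = 0.00318), 5730590G19Rik (Ticrr, a factor of origin firing) by 1.5 (adjusted p = 0.00511) and the fork protection gene Timeless by 1.20 (adjusted p = 0.00737), whereas Orc5, a subunit of the origin recognition complex, rose by 0.85 (adjusted p = 0.00843). Gmnn, the inhibitor of Cdt1, fell by 0.85 in the cold (adjusted p = 0.00843) and rose by 1.19 with siCirbp (adjusted p = 0.0228).

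Of 21 tested genes of other nucleotide synthesis, 3 fell and 4 rose in the cold, and 5 rose with siCirbp. The cold counts again lay near the shares of all tested genes (19.8% lower and 13% higher), and 2.77% of those rose with siCirbp. The purine enzyme Impdh1 fell by 1.47 in the cold (limma adjusted p = 0.0157) and the salvage kinase Dck by 1.15 (adjusted p = 0.0288). The nucleoside diphosphate kinase Nme1 rose by 0.90 (adjusted p = 0.0212), the GMP synthase Gmps by 0.69 (adjusted p = 0.023) and Rrm2b, the small reductase subunit used outside S phase, by 0.78 (adjusted p = 0.0295). Of 24 other G1/S regulators 6 fell and 3 rose in the cold, near the same shares, and 2 rose with siCirbp. Cdkn1a, the kinase inhibitor p21, rose by 1.60 in the cold (adjusted p = 0.00924), cyclin D1 (Ccnd1) rose by 0.84 (adjusted p = 0.011) and the repressor E2f8 fell by 1.48 (adjusted p = 0.0109). The repressor E2f4 fell by 1.01 (adjusted p = 0.00478), and Fbxo5, an inhibitor of the anaphase-promoting complex, fell by 1.38 in the cold (adjusted p = 0.0053) and rose by 1.41 with siCirbp (adjusted p = 0.0266). None of the genes on these 4 lists was called in the pair labelled siRbm3, where 6 other replication factors, 3 genes of nucleotide synthesis, 3 G1/S regulators and 14 mitosis genes were higher at an unadjusted p under 0.05 (9.21% of all tested genes) and 0, 1, 1 and 1 were lower (4.1% of all tested genes).

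The share of members with a PAR-CLIP site was near that of all tested genes. The Cirbp library listed 1941 sites and the Rbm3 library 2118, and in each 3 of the 46 members held 1 site (6.52%), where 8.31% and 8.79% of all tested genes held at least 1. The member loci were shorter, with a median of 15366 bases against 21332. With 1 library per protein there is no test.

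The Cirbp sites lay in Mcm2 (chr6:88838194-88838227, mm9, minus strand, score 201), Rfc3 (chr5:152445496-152445532, minus strand, score 101) and Ccne2 (chr4:11129410-11129434, plus strand, score 1). That of Rfc3 ended up 97 bases from the 3′ end of the locus, that of Mcm2 4726 bases from it. The Rbm3 sites lay in Mcm7 (chr5:138606541-138606581, minus strand, score 282), Pold3 (chr7:107255123-107255152, minus strand, score 434) and Fen1 (chr19:10274662-10274692, minus strand, score 360), at 724, 24500 and 1033 bases from the 3′ end. The score is the authors' own, and its median was 301 for Cirbp and 318 for Rbm3, so the 3 Cirbp sites were all below the median of their library and 2 of the 3 Rbm3 sites above it. No member held a site of both proteins. Exons were not analysed here, so whether a site is exonic or intronic is not given.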

How the data were processed

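The FPKM values were used as deposited by the authors, 1 for each of 28702 transcripts in each of 8 single-end 76 nt libraries. Reads were aligned with TopHat 1.1.2 to mm9, per the submitters' processing notes. The version of Cufflinks, the annotation release, the treatment of multiply mapped reads and the PAR-CLIP caller are not given in the sources used here. The deposited coverage column gives mean reads per base of each transcript, and its ratio to FPKM gave the depth and approximate reads per gene. Transcript length in nt is per the file headers. The score of a PAR-CLIP site is the authors' deposited whole number, its scale not stated.

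FPKM were summed per gene. Limma 3.58.1 (R 4.3.3) was fitted to log2(FPKM + 1) of the 10901 genes with a mean of at least 1 FPKM, using 1 mean per group (4 residual degrees of freedom) and moderation with trend and robust options. Two-sided p-values were adjusted by Benjamini-Hochberg over all tested genes, with a threshold of 0.05. The pseudocount makes log2 changes of low genes too small. Each gene has a single pooled SE, although the spread differed between groups. The median absolute log2 difference between replicates was 0.0879 in mock 37 °C, 0.107 at 32 °C, 0.261 with siCirbp and 0.313 in the pair labelled siRbm3. The SEs in the cold therefore include the wider siRNA spread, and those for siCirbp include the narrower mock and cold spread. The fit was also run on simulated data, in which each gene had the same spread in all libraries. That run could not check the effect of unequal spread between groups. Replicate numbers were not taken as pairs: correlations of same-numbered residuals ran from -0.153 to 0.091.

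The members and lists were chosen with earlier results of these data known. Every member was accounted for, with values in every library for up to 4 genes per role with the smallest adjusted p among those called and for exceptions within a role, and others added. Up to 5 genes per further list were named by smallest adjusted p over the comparisons, except that 1 item is not reported here. A PAR-CLIP site was counted for a gene when it overlapped the locus, from first to last listed base, by at least 1 base. Promoter windows were matched by symbol and motif letters exactly. Alternatives were another pseudocount, no filter, the highest transcript of each gene, median centring, quantile normalization, removal of the length trend by loess, the replicate block, fits of 2 groups only, and leaving out each library. A fit without the libraries labelled siRbm3 was added after the data were seen.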

Additional observations from a re-analysis of the deposited data

How the results depend on the processing

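No estimate of a called member changed sign under any alternative run. For the cold, 15 members were called, and 12 to 15 of them fell under another pseudocount, no filter, the highest transcript, median centring, quantile normalization, removal of the length trend and the replicate block. Of all genes tested in those fits 11.3% to 20.2% fell. Median centring also called Dut and Rfc3 higher, and quantile normalization and the block Rfc3. Median centring moved the median log2 change of all genes in the cold by 0.125. The fit of the 2 groups alone called 32 members. Leaving out 1 library gave 2 to 18 calls, the lowest counts without a mock 37 °C or 32 °C library.

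For siCirbp the 31 calls became 28 with a pseudocount of 0.1, 23 with the highest transcript, 26 with median centring and 30 with quantile normalization. The shares of all tested genes called higher were 2.26%, 1.64%, 1.95% and 2.57% in that order, against 2.77% in the main fit. The calls became 4 with no filter on low values (0.212% of all genes then tested) and 15 with the length trend removed (0.596%). They became 0 under the replicate block and 0 in the fit of the 2 groups alone (0.0183% in each). In those fits the adjusted p of the 31 genes stayed at or under 0.094 and 42 or 43 members had an unadjusted p under 0.05. Without both libraries labelled siRbm3, 42 members were called higher, as were 10.5% of all tested genes. Leaving out siCirbp replicate 1 or 1 library labelled siRbm3 raised the calls among members and among all tested genes. Leaving out any other single library lost the members' calls and nearly all others. The members' median log2 difference was 1.63 without siCirbp replicate 1 and 1.17 without replicate 2. It was 1.27 and 1.36 without mock 37 °C replicates 1 and 2.

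For the libraries labelled siRbm3, leaving out 1 library gave 0 to 1 call (Pola1, lower, without their replicate 1). Set against siCirbp the range was 0 to 28, with 28 without siRbm3 replicate 1. The replicate block gave 14 calls in the cold (13 lower and 1 higher) and 0 in the 3 other comparisons. Fits with 1 library in a group assume that it varies like the others. Counting only PAR-CLIP sites with at least the median score left 0 Cirbp and 2 Rbm3 sites in members, and extending loci by 1000 bases gave 4 for each. Genes under about 100 reads in a library (Cdc6, Pole2, Gins1, Rrm2, Mcm10, Tk1 and Ccne2) rest on few reads.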

Other observations

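Several members are listed with more than 1 transcript, 10 of the 46, and the authors' estimates divide their FPKM between start sites. For Uhrf1, one start site carried 69.0% and 35.1% of the gene's FPKM in mock 37 °C, 86.7% and 51.6% at 32 °C, 20.8% and 4.38% with siCirbp, and 46.3% and 73.7% in the pair labelled siRbm3. The 2 replicates of a group lay far apart, so only the siCirbp pair stood clear of the mock 37 °C pair. For Lig1, the main start site carried 82.3% and 92.9% in mock 37 °C, 82.2% and 86.4% at 32 °C, 91.1% and 97.7% with siCirbp, and 98.0% and 95.2% in the pair labelled siRbm3, so the cold and mock pairs overlapped. For Ccne2, the minor start site carried 32.7% and 26.3% in mock 37 °C, at most 8.76% in the cold pair, 21.0% and 13.0% with siCirbp, and 0.000554% and 0.00135% in the pair labelled siRbm3, so all 3 other groups lay below mock 37 °C. These shares depend on how reads common to several transcripts were assigned, and no test was run.

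Among the other replication factors, Hells, a chromatin remodeller linked to DNA methylation, had the widest gap between siCirbp and the libraries labelled siRbm3. It measured 10.5 and 10.9 FPKM in mock 37 °C, 8.83 and 8.55 at 32 °C, 26.0 and 48.5 with siCirbp, and 11.9 and 3.4 in the pair labelled siRbm3. The difference of 2.28 ± 0.48 on the log2 scale was not called (limma adjusted p = 0.221). Hells was chosen after its values were seen.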
